A study of Mus musculus with 6 samples.

Results

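NRF2 windows were examined at 10 genes that build, restrain or extend the NRF2 pathway: Nfe2l2, Keap1, Mafg, Mafk, Maff, Bach1, Osgin1, Nfe2l1, Nfe2l3 and Pir. They were chosen by name, with earlier results of these data known. Every peak that the authors' annotation gave to a member was taken at any distance from its transcription start site (TSS). This gave 24 of 16057 peaks, and 8 of the 10 genes had at least 1 in some list, beside 31.1% of all protein-coding genes. Mafk and Nfe2l1 had none in any list. The peaks come from chromatin immunoprecipitation and sequencing (ChIP-seq) with an antibody against NRF2 in mouse embryonic fibroblasts of strain 129S6/SvEvTac. The 4 NRF2 libraries were wild type (WT) in complete DMEM, WT in DMEM lacking leucine, GCN2-/- (GCN2 KO) in complete DMEM and GCN2 KO in DMEM lacking leucine, each after 24 h. Input libraries, 1 per genotype, were from complete medium only. The labels do not say how the knockout cells were derived or whether they are 1 clone.

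NRF2, the product of Nfe2l2, is a transcription factor of the cap'n'collar (CNC) family that binds DNA only as a pair with a small Maf protein, at the antioxidant response element. KEAP1 holds NRF2 in the cytoplasm and hands it to a ubiquitin ligase until oxidants or electrophiles modify KEAP1. BACH1 pairs with the same small Mafs and represses many of the same elements, and heme releases it. Several of these genes are themselves known NRF2 targets, so the pathway contains feedback loops. GCN2, encoded by Eif2ak4, is a kinase that senses uncharged tRNA when an amino acid such as leucine is scarce.

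In WT cells 2336 peaks were called with leucine and 5980 without it, and in GCN2 KO cells 3141 and 4600. Each peak is a window of 300 bp with a whole-number score from the authors, and the lowest score is 13 in every list. A rank of 1 is the highest score of a list, and the percent rank is that rank as a percent of the list's length. Each list is 1 library and the read depth behind it is unknown. No difference between lists therefore has a replicate check, and a missing peak means only that no window passed the authors' threshold. Scores and ranks are not compared as amounts of binding across lists. All coordinates are mm10.

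The regulator and feedback genes had NRF2 windows in every condition. More of the genes had one in WT cells without leucine, the longest list, than in any other. In WT cells in complete medium 4 of the 10 genes had a peak, while 7.93% of all protein-coding genes did. In WT cells without leucine 7 of 10 had one, beside 17.3% of all genes. In GCN2 KO cells 3 of 10 had a peak in complete medium and 3 of 10 without leucine, beside 9.89% and 13.5% of all genes. Within 10 kb of the TSS the members numbered 4, 6, 3 and 2 in that order, and the shares of all genes were 2.28%, 6.17%, 3.03% and 4.03%. With each list cut to its 2336 highest-scoring peaks, the members at any distance numbered 4, 5, 3 and 2. For this cut, here and in the comparisons below, the shares of all genes are not given. The shares above belong to the full lists. The members were picked as known pathway genes, with earlier results of these data known. Their excess over all genes is therefore a description of this set.

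**Figure D1:**
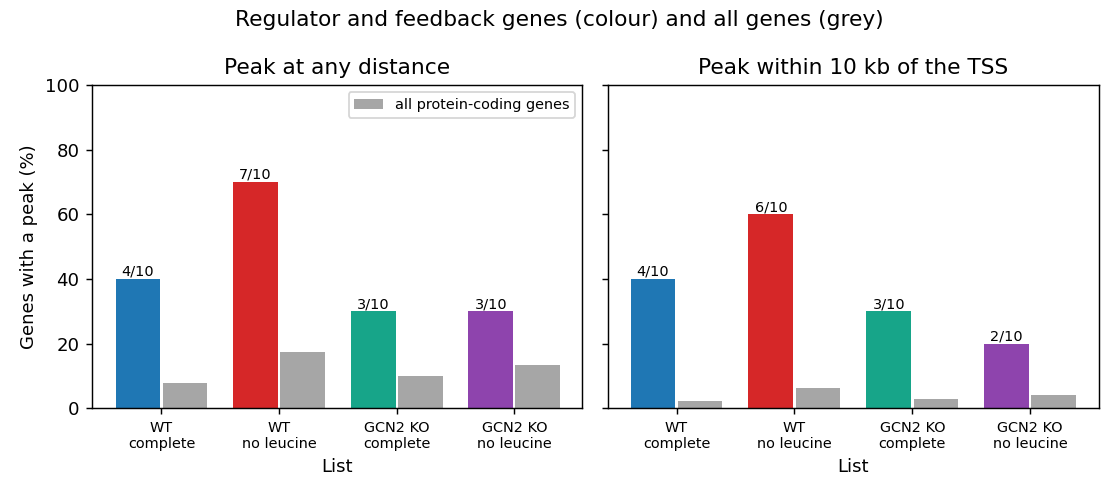
Percent of genes with an NRF2 peak (y axis) in each of the 4 lists (x axis), at any distance on the left and within 10 kb of the TSS on the right. Coloured bars are the 10 regulator and feedback genes with their counts above, and grey bars are all 21900 protein-coding genes. The tallest coloured bar in both panels is WT without leucine, with 7 and 6 genes.

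Nfe2l2, the gene for NRF2 itself, had a window in both WT lists and in neither KO list. In WT cells in complete medium it lay at chr2:75703797-75704097, 694 bp downstream of the TSS in intron 1 of 4. Its score of 79 gave rank 314, or 13.4% of the list. In WT cells without leucine it lay at chr2:75703877-75704177, 614 bp from the TSS, with a score of 37 and rank 2077, or 34.7%. The windows overlap, with centres 80 bp apart, and both are annotated to a CpG island. Their GC content was 66.8% and 68.4%, whereas the median window of each list had between 51.2% and 52.2%. The part of base composition in this site's detection was not tested.

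The other CNC genes carried little. Nfe2l3, which encodes NRF3, had 1 window, in GCN2 KO cells without leucine, at chr6:51437818-51438118 in intron 1 of 3 and 5298 bp from the TSS. Its score of 24 was shared by 731 windows of that list and gave rank 3090, or 67.2%. Nfe2l1, which encodes the membrane-bound factor NRF1 that restores proteasome genes, had no assigned window. The nearest windows of any gene lay 99.7, 32.6, 48.6 and 204 kb from the ends of Nfe2l1, with WT before KO and complete medium before leucine withdrawal in each genotype.

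Mafg, a small Maf partner of NRF2 and BACH1, carried the only site of these genes that was in all 4 lists. The window in intron 1 of 2 lay at chr11:120630063-120630363 in WT cells in complete medium, 3334 bp downstream of the TSS. It scored 268 there, with rank 55, and 234 in WT cells without leucine, with rank 84. In GCN2 KO cells it scored 229 with rank 48 in complete medium and 116 with rank 187 without leucine. These ranks lie between 1.40% and 4.07% of their lists, so the site was near the top in every condition. The 4 window centres fell within 53 bp, close to the median of 42.0 bp over the 256 regions that were in all 4 lists.

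A second Mafg site was in both KO lists and in neither WT list. It lay nearer the TSS in the same intron, in a CpG island. In GCN2 KO cells in complete medium it was at chr11:120632809-120633109, 588 bp from the TSS, with a score of 27 and rank 2096, or 66.7%. Without leucine it was at chr11:120632918-120633218, 479 bp from the TSS, with a score of 57 and rank 560, or 12.2%. The centres were 109 bp apart, beyond the upper quartile of 83.0 bp for regions in 2 lists. GC content was 71.1% and 76.7%. Its KO window in complete medium was not in the higher-scoring 50% of the list, nor among its first 2336 peaks, and with centres within 100 bp as the rule the windows were not 1 site.

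The remaining small Mafs had 1 window between them. Maff had a window in WT cells without leucine, intergenic at chr15:79343274-79343574 and 4254 bp upstream of the TSS, with a score of 29 and rank 3470, or 58.0%. Mafk had no assigned window. The windows nearest to Mafk belonged to other genes and lay 167, 19.3, 32.5 and 16.9 kb away, in the list order used above.

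Keap1, which encodes the repressor that targets NRF2 for degradation, had a window in WT cells without leucine and in GCN2 KO cells in complete medium. In the WT list it lay at chr9:21238639-21238939, 543 bp from the TSS, with a score of 30 and rank 2557, or 42.8%. In the KO list it lay at chr9:21238698-21238998, 484 bp from the TSS, with a score of 27 and rank 2096, or 66.7%. Both windows are annotated to the 5' UTR, exon 1 of 5, and their centres are 59 bp apart. The scores are low and common: 913 windows of the WT list shared the score of 30 and 374 of the KO list the score of 27. GC content was 76.7% and 76.4%, among the highest of the 24 windows. The other 2 lists held no Keap1 window at any distance.

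Bach1, the repressor that competes with NRF2 for small Mafs, had more windows than any other member, 9 at 6 sites. It was assigned a peak in all 4 lists, as were 1.61% of all protein-coding genes, but no Bach1 site was in all 4. The GCN2 KO list in complete medium held 4 Bach1 windows, and 1.11% of genes with a peak in that list had 4 or more. WT in complete medium held 2, WT without leucine 2 and KO without leucine 1.

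The Bach1 site close to the TSS was in both complete-medium lists and in neither list without leucine. In WT cells it lay at chr16:87699902-87700202, 1098 bp from the TSS in intron 1 of 4, with a score of 125 and rank 170, or 7.28%. In KO cells it lay 1167 bp from the TSS with a score of 36 and rank 1290, or 41.1%. A deeper site in the same intron was in 3 lists, at chr16:87713046-87713346 in WT cells in complete medium, 14242 bp from the TSS. There it scored 89 with rank 279, or 11.9%. In WT cells without leucine it scored 128 with rank 222, or 3.71%, and in KO cells in complete medium it scored 28 with rank 2017, or 64.2%. The first-intron sites were therefore high in the WT lists that held them and in the middle or lower part of the KO list.

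The remaining Bach1 windows were each in 1 list. KO cells in complete medium had a window in the 3' UTR, exon 5 of 5, at chr16:87729936-87730236, with a score of 41 and rank 1114. The same list had one 198635 bp downstream of the TSS, at chr16:87897439-87897739, inside intron 15 of 16 of Grik1, a glutamate receptor gene, with rank 581. WT cells without leucine had an intergenic window 168919 bp downstream with rank 4885, or 81.7%. The sole Bach1 window of KO cells without leucine was intergenic, 51191 bp upstream at chr16:87647613-87647913, in a SINE repeat, with rank 1222. These windows were assigned to Bach1 by distance alone, and the Grik1 window shows that assignment need not name the gene that holds the site.

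**Figure D2:**
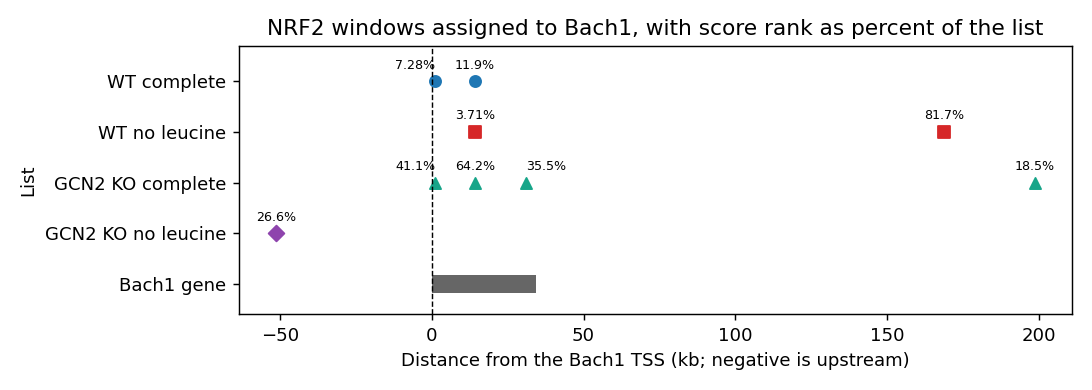
Windows assigned to Bach1 in the 4 lists (y axis) by distance from the Bach1 TSS in kb (x axis), with the percent rank above each point and the gene body as a grey bar. The intron 1 windows of WT cells have percent ranks between 3.71% and 11.9%, and the only window of KO cells without leucine lies upstream of the gene.

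Osgin1, an oxidative stress-induced growth inhibitor and a known NRF2 target, had a window in WT cells without leucine alone. It lay at chr8:119436850-119437150, annotated to the promoter and centred 162 bp upstream of the TSS, with a score of 121 and rank 246, or 4.11% of the list. It is the highest of the members' windows that were in a single list, and the only 1 of the 24 annotated to a promoter. The 250 bases before the start site in the RefSeq promoter table (GRCm38.p6, chr8:119436897-119437146, plus strand) are shown because the window covers all of them. That start site lies 15 bp from the TSS of the deposited distance. Capitals mark a run of 10 bases, 100 to 91 bases before the start, where the Maf element stretch TGCTGA and the AP-1 site TGANTCA overlap. The middle of that run lies 51 bp from the centre of the peak window. Read on the minus strand, the run is TGAGTCAGCA. It has a G where the core pattern TGACNNNGC, searched below, has a C, and otherwise holds that pattern.

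Osgin1: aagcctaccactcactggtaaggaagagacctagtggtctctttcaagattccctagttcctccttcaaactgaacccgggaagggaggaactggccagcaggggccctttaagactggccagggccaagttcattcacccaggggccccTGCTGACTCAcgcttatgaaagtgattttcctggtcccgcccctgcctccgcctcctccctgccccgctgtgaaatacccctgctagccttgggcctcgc

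Pir, which encodes pirin, an iron-binding nuclear protein and a known NRF2 target, had a window in both WT lists and in neither KO list. In complete medium it lay at chrX:164269389-164269689, 108 bp from the TSS, with a score of 120 and rank 188, or 8.05%. Without leucine it lay at chrX:164269400-164269700, 119 bp from the TSS, with a score of 74 and rank 463, or 7.74%. Both are annotated to the 5' UTR, exon 1 of 10. The centres are 11 bp apart, which is below the lower quartile of 14.0 bp for regions in 2 lists. The percent ranks are alike although the lists differ in length.

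The core antioxidant response element TGACNNNGC, read on both strands, was then sought in the promoter windows of the RefSeq table, which run from 250 bases before to 50 after each start. All 10 members had at least 1 such window, 16 in all. The element was in 5 of the 16, 1 each for Nfe2l2, Mafg, Mafk, Maff and Pir, and in 12.4% of all 32851 promoter windows. Of the 284 promoter windows that a peak of any list touched, 22.9% held it (exact Clopper-Pearson 95% interval 18.1 to 28.2). The interval counts overlapping promoter windows as independent. By list the share was 37.9% of 58 windows in WT in complete medium and 27.8% of 151 in WT without leucine. In KO cells it was 32.8% of 67 in complete medium and 28.2% of 78 without leucine. TGANTCA, which overlaps the element where TGACTCAGC occurs, was in 2 of the members' windows, those of Osgin1 and Pir, and in 7.81% of all. It was in 15.1% of the 284 windows that a peak touched (interval 11.2 to 19.8). That share was 27.6%, 18.5%, 25.4% and 11.5% in the list order used above, so the core element was not alone in being more frequent there. TGCTGA was in 6 of the members' windows, those of Osgin1, Mafk and Bach1 and 3 overlapping ones of Nfe2l1, and in 19.5% of all. Of the windows that a peak touched, 22.5% held TGCTGA (interval 17.8 to 27.8). Peaks touched the promoter window of Osgin1 and Pir alone among the members. Of the members' matches before the start site, only those of Osgin1 lie inside a peak window, and those of Pir lie outside.

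Matches to the core element before the start site, 1 for each of these 5 genes, are set side by side below with 10 bases on each side, on the strand that holds the motif, because they show how the members' elements differ. Capitals mark the element. None of the 5 lies in a window of any list. The Osgin1 run shown above, which TGACNNNGC does not match, lies in the window of WT cells without leucine.

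Pir (chrX:164269207-164269235, minus strand): tttgggggagTGACTCAGCctctctatgc
Nfe2l2 (chr2:75704885-75704913, minus strand): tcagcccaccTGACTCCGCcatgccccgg
Maff (chr15:79346499-79346527, plus strand): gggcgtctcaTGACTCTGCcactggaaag
Mafk (chr5:139791513-139791541, minus strand): tccccagtacTGACACCGCttccgggatc
Mafg (chr11:120633751-120633779, plus strand): ctcgccgggtTGACCGTGCtcctgcagag

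The Nfe2l2 windows lie downstream of the start, and their own sequence was not searched.

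**Figure D3:**
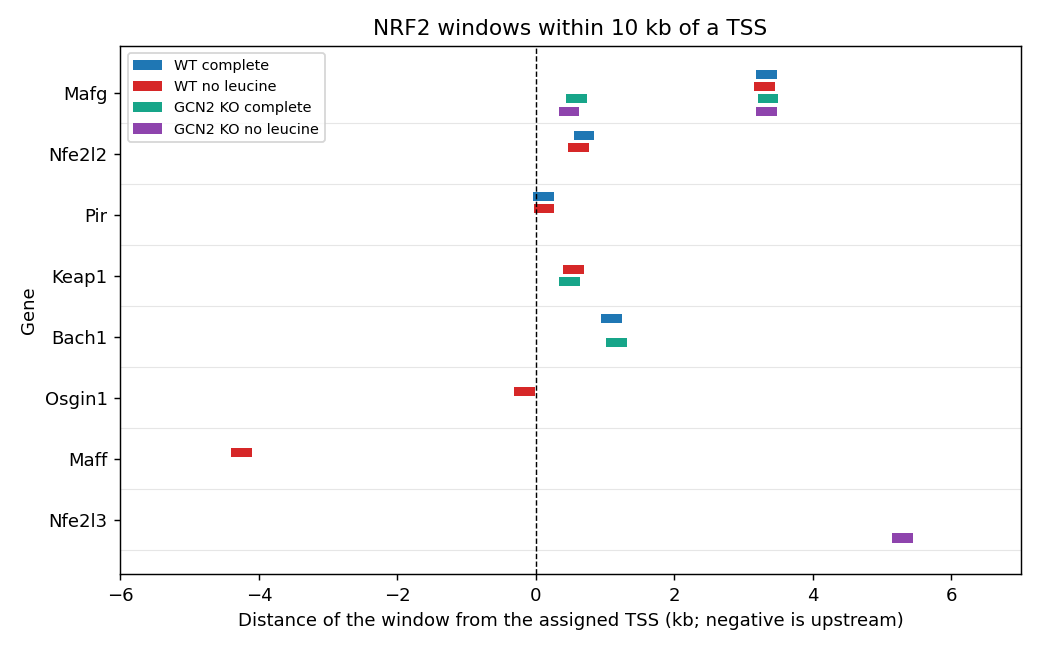
Position of each 300 bp window within 10 kb of the assigned TSS (x axis, kb) for 8 genes (y axis), coloured by list. The Mafg windows at 3.3 kb are in all 4 lists, those of Nfe2l2 and Pir are in both WT lists, and the Mafg windows nearer the TSS are in both KO lists.

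The 24 windows formed 14 sites. Of these, 7 were in 1 list, 5 in 2 lists, 1 in 3 and 1 in all 4. Sites in 2 or more lists thus numbered 7 of 14, beside 6.54% of all 14390 regions, and the site in all 4 stood beside 1.78% of all regions. By the authors' annotation 15 windows were in introns, 4 in a 5' UTR, 1 in a 3' UTR, 1 at a promoter and 3 between genes, and 17 lay within 10 kb of the TSS. The same shares over all peaks are not given here, so these counts do not set the members apart from the lists. A total of 18 windows ranked in the higher-scoring 50% of their list. The median percent rank of the members' windows was 8.05% with leucine and 21.2% without it in WT cells, and 41.1% and 19.4% in KO cells. These medians are over 5, 8, 7 and 4 windows at differing sites, so they do not show the same sites changing rank.

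**Figure D4:**
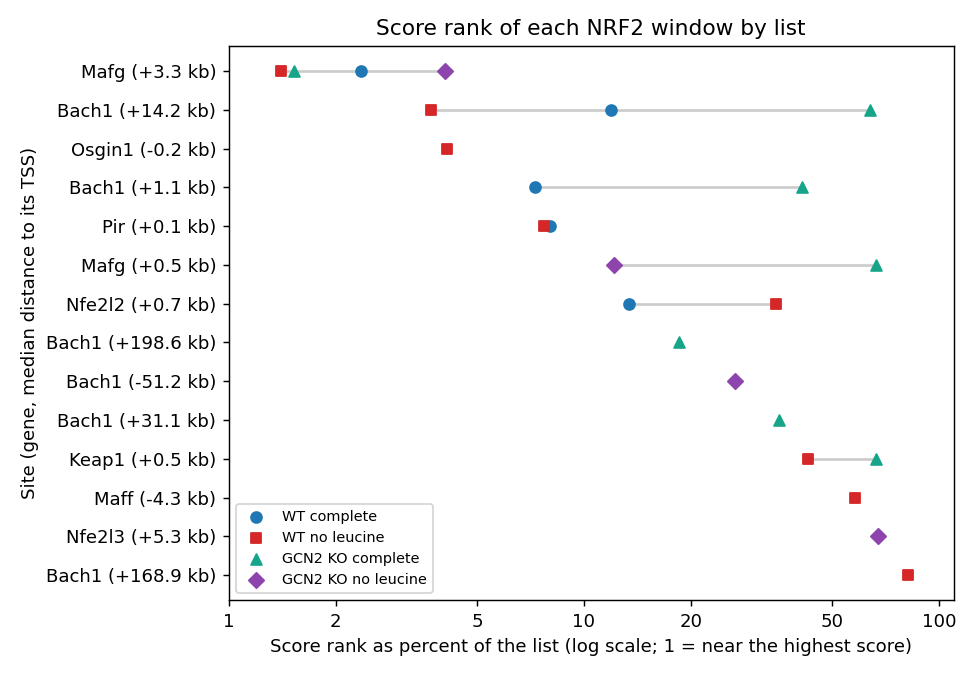
Percent rank of each window in its list (x axis, log scale) for the 14 sites (y axis, gene and median distance to the TSS), with 1 marker per list and a grey line joining windows of 1 site. The Mafg site at 3.3 kb stays between 1.40% and 4.07%, whereas the Bach1 site at 14.2 kb runs from 3.71% to 64.2%.

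Leucine withdrawal in WT cells asks where NRF2 is found when an amino acid is missing and GCN2 is present. Bach1, Mafg, Nfe2l2 and Pir had a window in both media, and Keap1, Maff and Osgin1 without leucine alone. No member had one in complete medium alone. Of the 7 members with a window in either list, 4 were in both and 3 without leucine alone. Among all 4630 genes with a peak in either list, 19.5% were in both, 62.5% without leucine alone and 18.0% in complete medium alone. The list without leucine is the longer one, and with lists of 2336 peaks the members without leucine alone numbered 1, Osgin1. Within 10 kb Bach1 was in complete medium alone.

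In GCN2 KO cells the same change of medium left Bach1 and Mafg in both lists. Keap1 was in the complete-medium list alone and Nfe2l3 in the list without leucine alone. Of 4202 genes with a peak in either list, 22.0% were in both, 48.4% without leucine alone and 29.5% in complete medium alone. Bach1 was counted in both through different sites, and the Mafg sites were the only member sites with overlapping windows in both KO lists, of which the one nearer the TSS depended on the overlap rule and list length as given above. Within 10 kb the members in both lists numbered 1, Mafg, and those in complete medium alone 2. In the higher-scoring 50% of each list no member was in either KO list alone.

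The comparison of GCN2 KO with WT cells in complete medium asks whether loss of the sensor goes with other NRF2 sites when leucine is present. Bach1 and Mafg were in both lists, Nfe2l2 and Pir in WT alone and Keap1 in KO alone. Of 3305 genes with a peak in either list, 18.1% were in both, 34.4% in WT alone and 47.5% in KO alone. The KO list is the longer of the pair, but the read depth of both is unknown. The Nfe2l2 and Pir windows, with WT percent ranks of 13.4% and 8.05%, had no counterpart in it, and the reason was not tested. In the higher-scoring 50% of each list Keap1 was lost and the members in KO alone numbered 0.

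Genotypes were last compared without leucine, to ask which sites go with the sensor when leucine is missing. Bach1 and Mafg were in both lists, Keap1, Maff, Nfe2l2, Osgin1 and Pir in WT alone and Nfe2l3 in KO alone. Bach1 was counted in both through different sites, and only Mafg had overlapping windows in both. Within 10 kb the members in both lists numbered 1, Mafg. Of the 8 members with a window in either list 5 were in WT alone, and of 5413 genes in either list 45.3% were, with 24.8% present in both and 29.9% in KO alone. With lists of 2336 peaks the members in WT alone numbered 3, namely Nfe2l2, Osgin1 and Pir, and those in KO alone 0. The comparisons share lists with each other, so they are not independent descriptions of a member.

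Other genes of the pathway were taken from a list of 30, and 15 of them had a peak at any distance in some list, beside 31.1% of all genes. They numbered 6, 8, 6 and 6 in the list order above, beside 7.93%, 17.3%, 9.89% and 13.5% of all genes. Within 10 kb they numbered 2, 1, 1 and 2, beside 2.28%, 6.17%, 3.03% and 4.03%. Rxra, Sqstm1 and Jun were in all 4 lists. Rxra, a nuclear receptor known to bind NRF2 and restrain it, had a window in intron 2 of 9 at chr2:27740298-27740598 in WT cells in complete medium, 29865 bp from the annotated TSS. Its ranks were 1, 2, 2 and 1, so this window was first or second in every list, above Mafg. The other Rxra windows were each in 1 list. WT in complete medium had 2 promoter windows, 75 bp upstream and 482 bp downstream of the TSS, with ranks 1592 and 1785. WT without leucine had one 47.9 kb upstream with rank 639, and KO without leucine one 14.8 kb downstream with rank 2943. Sqstm1, the autophagy receptor p62 that binds KEAP1, had a site 2.1 kb upstream with ranks 116, 71, 214 and 72. Another lay at its promoter with ranks 292, 412, 581 and 751. The Jun window lay 110.4 kb upstream in WT cells in complete medium and had ranks 257, 150, 2540 and 134. It was annotated to a SINE repeat except in KO cells in complete medium.

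Among the 10 genes for ubiquitin ligases and degradation 6 had a window in some list, beside 31.1% of all genes, each in 1 list and most far from the TSS. Btrc, a receptor subunit of the ligase that acts on phosphorylated NRF2, and Rbx1, the RING subunit of the KEAP1 ligase, were in WT in complete medium. Fbxw11, a close relative of Btrc, was in WT without leucine with rank 5809, in an intron of Stk10. Cul1 was in KO in complete medium, and the ligase scaffold gene Cul3 and the kinase gene Gsk3b in KO without leucine. Gsk3b was the only one of the 6 within 10 kb, 8949 bp upstream with rank 2943. Of the co-regulators, Chd6 had windows without leucine in both genotypes at different places, and Ep300 had one in KO in complete medium. Ngly1, the enzyme that helps activate NRF1, had windows in WT without leucine and KO in complete medium at different places. Ahr was in WT in complete medium, and Myc and the stress gene Sesn2 in WT without leucine. Neither Nfe2 nor Bach2, the remaining CNC and BACH genes, had a window in any list.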

How the data were processed

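The members and the gene lists were chosen with earlier results of these data known. Reads were processed with BWA 0.7.12, MACS2 2.1.0 and HOMER 4.7 on mm10, per the submitters' processing notes, and the settings are not given in the sources used here. Each library was set against the complete-medium input of its genotype, also the libraries without leucine, per the file headers. Every window has a deposited score, in whole numbers, whose origin in the caller is not stated. The GC and CpG content is a fraction of the window that the authors deposited, printed here as a percent. Distances to the transcription start site (TSS) and feature classes are the authors' annotation.

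Peaks were taken by the deposited gene name at any distance, which gave 24 windows. Ranks were computed within each list, and windows with the same score share the best rank. Windows that overlapped by at least 1 bp were merged into regions, and the step was tested on simulated windows. The share of genes with a peak was computed over 21900 protein-coding genes of the RefSeq table for GRCm38.p6, the assembly of mm10. For 19 of the 24 windows the deposited distance matched a TSS of the RefSeq promoter table exactly, and the largest difference was 158 bp. No genome sequence was used here, so motifs were searched in the promoter table and not in the windows, unlike the design. Every member was named, as was every gene of a list of 30 other pathway genes with a peak, and the 2 regions in all 4 lists with ranks nearest to a member region in all 4. Counts were repeated with the top 50% of each list by score, lists of 2336 peaks, a limit of 10 kb, no satellite or simple repeats, and 3 other overlap rules. Python 3.11.15, pandas 2.3.3, scipy 1.17.1 and matplotlib 3.10.9 were used. With 1 library per condition no test between conditions was made. Intervals cover counting error only, with overlapping promoter windows counted as independent. One motif match is not reported here.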

Additional observations from a re-analysis of the deposited data

Results flagged for a closer look

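The presence of the Keap1 window went in opposite directions with leucine withdrawal in the 2 genotypes. WT cells had the window without leucine, at rank 2557 of 5980, and not in complete medium. GCN2 KO cells had it in complete medium, at rank 2096 of 3141, and not without leucine. With lists of 2336 peaks the WT window was not counted, and with the top 50% by score the KO window was not counted. Only 1 side of the pattern was left each time. The window left shared its score with windows on both sides of the cut, so only file order kept it. Each condition is 1 library, and the difference between the genotypes was not tested.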

How the results depend on the processing

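No paired analysis was possible because each condition has 1 library. Of 102 recomputed counts, 82 stayed within 1.5 times the value given in the report and 20 did not. Leaving out satellite, simple and low-complexity repeats and unplaced contigs moved none of 22 counts, and the 3 other overlap rules moved none of 6 by that measure, although with centres within 100 bp the sites in 2 or more lists numbered 6 instead of 7, without the Mafg site near the TSS. Both cuts by list length kept tied scores in file order. With 2336 peaks this separated the Keap1 and Mafg windows of KO cells in complete medium. With the top 50% it kept the Keap1 window of WT cells without leucine. In the higher-scoring 50% of each list, KO windows in complete medium numbered 4 instead of 7, and 5 other pathway genes were in WT without leucine instead of 8. There, members in KO alone numbered 0 in both comparisons with WT, and members in either KO list alone numbered 0. With lists of 2336 peaks, windows in WT without leucine numbered 5 instead of 8 and members in that list and not in WT in complete medium 1 instead of 3. Members in WT and not in KO without leucine then numbered 3 instead of 5, and members in KO without leucine and not in the other list compared 0 instead of 1, for either other list. Within 10 kb, KO windows in complete medium numbered 4, members in WT in complete medium alone 1 instead of 0, and members in both KO lists 1 instead of 2. Members in KO in complete medium and not without leucine were 2 instead of 1, and members in both lists without leucine 1 instead of 2. Other pathway genes then numbered 2, 1, 1 and 2. These changes follow from fewer windows being counted. Motifs in the windows, over 300 bp or the central 100 bp, were not searched. The authors' threshold limits every absence, since a window under it is not listed. The part of read depth, which is unknown, was not tested.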

Other observations

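A window 13151 bp upstream of Maff in WT cells in complete medium, at chr15:79333320-79333620, was assigned to Pla2g6, a phospholipase gene whose TSS is 5099 bp away. It had a score of 33 and rank 1385, or 59.3%. An overlapping window in WT cells without leucine had a score of 50 and rank 903, or 15.1%, and the KO lists had no window overlapping these. Pla2g6 was named after its values were seen. Another Pla2g6 window, in GCN2 KO cells without leucine, lay 28891 bp upstream of Maff in an intron of Pla2g6, with rank 3925, or 85.3%. Distances to Maff in this paragraph are from its most upstream start in the RefSeq promoter table, not from the TSS of the deposited annotation.

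The regions whose percent ranks over the 4 lists were nearest to those of the Mafg site in all 4 lay near A730085K08Rik and near Neat1, a long noncoding RNA gene. Among 256 regions compared, the mean absolute difference in percent rank was 0.768 for the former and 0.792 for the latter. The Neat1 region had ranks 36, 87, 76 and 122, and the A730085K08Rik region 41, 115, 52 and 103. The latter was intergenic, in a SINE repeat, and 72909 bp upstream of the TSS it was assigned to.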
